A study of Mus musculus with 14 samples.

Results

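Epidermal stem cells (EpdSCs) were compared between 2 and 6 weeks of sustained SOX9 expression (W2 and W6), which asks what changes in these cells late in reprogramming while they still sit in skin that was never grafted. The comparison takes 4 of the 14 RNA samples of the study, 2 at W2 and 2 at W6, chosen by timepoint alone. The 2 samples of a timepoint are biological replicates, and the sources used here do not say how many mice went into one. It covers the 13110 genes whose TPM averaged 1 or more across the 10 samples of the time course. The mice were CD1, K14rtTA; TRE-myc-Sox9, labelled male, and had been given doxycycline (DOX) by injection at postnatal day 21 and in their feed from then on. They were 35 days old at W2 and 63 at W6, so that age and time on DOX cannot be told apart, and no uninduced mice of these ages were analysed here. In this model the *Krt14* promoter drives the DOX-dependent activator, so the MYC-tagged SOX9 is made in the basal layer of the epidermis and related epithelia. The study kept no ungrafted mouse beyond W6, owing to defects of differentiation. Cells were sorted from back skin as CD49f-high, CD34-negative and Ly6A-high, after removal of cells with CD31, CD45, CD117 or CD140a.

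EpdSCs are the basal keratinocytes that renew the epidermis between hair follicles. They adhere to the basement membrane through integrins and hemidesmosomes, and their daughters stop dividing, move up and build the cornified envelope. SOX9 is normally absent from these cells and maintains the stem cells of the hair follicle, whose outer root sheath it helps to form. Wounded or hyperplastic epidermis switches on a separate set of keratins, KRT6, KRT16 and KRT17, that resting interfollicular epidermis largely lacks, and basal cell carcinoma is a SOX9-expressing tumour that is driven by Hedgehog signalling.

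TPM is the abundance of a transcript per unit of length on a scale that sums to 1000000 in each sample, so the depth behind a value is unknown and no counting interval can be given. Changes are given as log2 changes of TPM + 1, W6 minus W2, which understate the change of genes at low TPM, followed by ± their standard error and the Benjamini-Hochberg adjusted *P* of a limma fit over all 10 samples. Pearson's *r* between the 2 samples was 0.988 at W2 and 0.958 at W6. W6 replicate 2 stood apart from the other samples, with 13739 genes above 1 TPM against at most 13247 in any other. The marker genes of the sorted population were present in all 4 samples, and *Krt14* had 20000 and 22820 TPM at W2 against 24720 and 25510 at W6. *Krt5*, its partner, had 10400 and 10550 TPM at W2 against 9411 and 8227 at W6. Of the 6 basal epidermis markers, which include both, none was called higher. *Itga6*, *Itgb4* and *Col17a1* were called lower (3 of 6, against 8.31% of all genes), and the median log2 change was −0.604. The sort marker gene *Ly6a* had 293 and 268 TPM at W2 against 275 and 421 at W6. *Itga6* and *Cd34*, also sort markers, are described below. T cell, Merkel cell and muscle markers summed to at most 1.38 TPM in any of the 4 samples, and endothelial markers to at most 2.59. Melanocyte markers summed to 6.15 and 5.34 TPM at W2 against 4.33 and 11.8 at W6, those of sebocytes to 380.3 and 378 against 365 and 273, and those of red cells to 15 and 3.77 against 17.8 and 12.2. Adipocyte markers summed to 0.187 and 0.483 against 1.76 and 2.87, nearly all of it *Fabp4*, the one cell type marker called higher (log2 change 1.26, adjusted *P* = 0.0277). *Fabp4* was under 1 TPM in every sample from D0 to W2 and was tested only through W6 and W12. The fibroblast markers summed to 2.75 and 2.25 TPM at W2 against 1.68 and 52.2 at W6, where *Dcn* alone had 51.2 TPM in replicate 2 while *Col1a1* had 0.143. The macrophage and Langerhans cell markers summed to 38.1 and 26.2 TPM at W2 against 21.3 and 5.47 at W6. In sorted bulk samples, fewer cells of a type and less RNA per cell cannot be told apart.

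The transgene transcript, which has an entry of its own in the authors' index, had 1892 and 1469 TPM at W2 against 1108 and 859 at W6. Both W6 samples were below both W2 samples, but the log2 change of −0.77 ± 0.32 (adjusted *P* = 0.125) did not pass the threshold of an adjusted *P* under 0.05. The endogenous gene, *Sox9*, had 11.3 and 9.68 TPM at W2 against 9.88 and 13.6 at W6 (log2 change 0.13 ± 0.26, adjusted *P* = 0.743). The samples of both timepoints overlapped, and reads of its coding sequence can be shared with the transgene.

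Between W2 and W6, 2137 of the 13110 genes differed at an adjusted *P* under 0.05 (16.3%). Of these, 1048 rose (7.99% of all genes) and 1089 fell (8.31%). A log2 change of at least 1 was reached by 516 of the higher and 613 of the lower genes. The median log2 change over all genes was 0.009. A larger set of 4349 genes (33.2%) had both W6 samples above both W2 samples, and 4168 (31.8%) had both below. The number of genes that differed rested on single samples, being 207 without W2 replicate 1, 331 without W2 replicate 2 and 1175 without W6 replicate 2. It was 1235 without W1 replicate 1 and 1245 without W1 replicate 2, which enter only through the shared spread. Of the 159 named genes that differed, 43 did so without W2 replicate 1 and 63 without W2 replicate 2. Of 43 list counts of 1 to 3 genes, 33 had no call left without W2 replicate 1, 27 without W2 replicate 2 and 14 without W6 replicate 2. Counts within a gene list moved too, and each sample left out, or other setting of the fit, that moved a count of 4 or more by over 1.5 times is named beside that count.

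**Figure D1:**
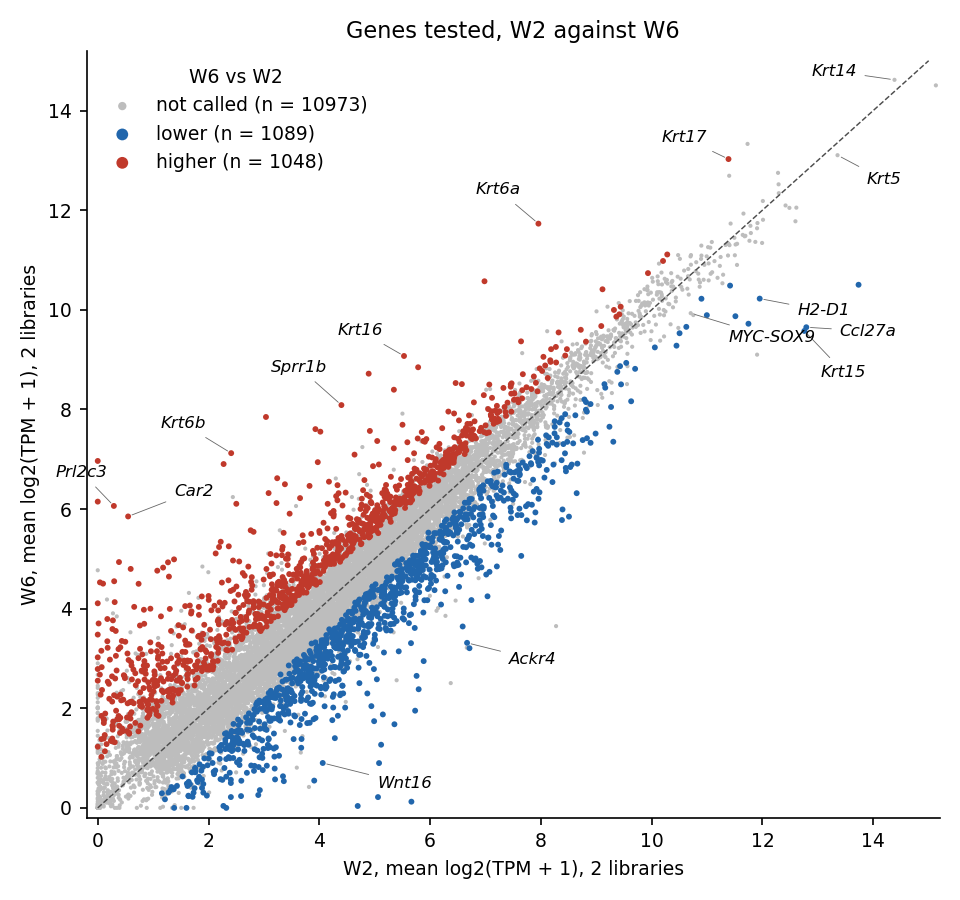
Mean log2(TPM + 1) of each of the 13110 genes at W2 (horizontal axis) and W6 (vertical axis), 2 samples each, with genes higher or lower at W6 at an adjusted *P* under 0.05 in colour. *Krt6a*, *Krt16* and *Prl2c3* lie above the diagonal and *Krt15* and *Ccl27a* below it, while *Krt14* and *Krt5* lie close to it.

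The largest rise among genes of at least 10 TPM at either timepoint was that of a proliferin, one of a group of secreted proteins of the prolactin family that are best known from the placenta. *Prl2c3* (chromosome 13, 12790816 to 12800079, GRCm38) was listed at 0 and 0.497 TPM at W2 against 48.3 and 89.5 at W6 (log2 change 5.77 ± 0.31, adjusted *P* = 0.000153). Its relative *Prl2c5*, also among the 12 largest rises, had 0.0379 and 0.10 TPM at W2 against 12.8 and 36.3 at W6 (log2 change 4.41 ± 0.48, adjusted *P* = 0.00189). *Prl2c2* had 0.272 and 0 TPM at W2 against 7.73 and 21 at W6 (log2 change 3.62 ± 0.43, adjusted *P* = 0.00272). All 3 reach the mean of 1 TPM needed for a test only through W6 and W12, so that a tested one could hardly be other than higher, and they are near-identical copies whose reads can be shared, so the split between them is uncertain. The likeness extends to their promoters. The RefSeq windows (GRCm38.p6, 250 bases before to 50 after the transcription start) of Prl2c3 (chr13:12800030-12800329, minus strand) and Prl2c5 (chr13:13182466-13182765, plus strand) match in 287 of 301 aligned columns (95.3%). They are shown because the pair rose together from near 0, with capitals marking the letters TGANTCA, the sequence that AP-1 factors are known to bind, which was searched on both strands. A match begins 209 bases before the start of Prl2c3, and none is in the window of Prl2c5:
Prl2c3: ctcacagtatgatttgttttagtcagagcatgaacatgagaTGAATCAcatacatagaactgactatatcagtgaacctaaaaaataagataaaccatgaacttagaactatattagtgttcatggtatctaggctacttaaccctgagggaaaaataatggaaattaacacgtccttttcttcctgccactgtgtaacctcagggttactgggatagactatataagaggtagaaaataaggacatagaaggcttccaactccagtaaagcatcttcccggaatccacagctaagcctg
Prl2c5: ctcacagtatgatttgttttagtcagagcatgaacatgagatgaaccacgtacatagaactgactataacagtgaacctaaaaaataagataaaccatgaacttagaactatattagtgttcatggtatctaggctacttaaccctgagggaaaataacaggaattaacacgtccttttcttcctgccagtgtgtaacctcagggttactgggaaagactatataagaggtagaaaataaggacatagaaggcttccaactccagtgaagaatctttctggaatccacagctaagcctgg

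*Car2*, a carbonic anhydrase, had 0.459 and 0.466 TPM at W2 against 26.4 and 120.5 at W6 (log2 change 5.3 ± 0.56, adjusted *P* = 0.00173). *Pitx1*, a homeobox factor of hindlimb and oral epithelium, was near 0 at W2, with 0.0157 and 0.0407 TPM at W2 against 17.7 and 27.4 at W6 (log2 change 4.49 ± 0.32, adjusted *P* = 0.000505). *Tubb3*, a tubulin that is best known from neurons, had 0.656 and 0.679 TPM at W2 against 23.8 and 19.6 at W6 (log2 change 3.76 ± 0.25, adjusted *P* = 0.000379). *Car2*, *Pitx1* and *Tubb3* were under 1 TPM in every sample from D0 to W2. They reach the mean of 1 TPM only through W6 and W12, so a tested one could hardly be other than higher. *Tmem14c*, a transporter of the mitochondrial inner membrane in haem synthesis, had 7.52 and 6.91 TPM at W2 against 258 and 204 at W6 (log2 change 4.81 ± 0.35, adjusted *P* = 0.000505). Its W2 level was below that of the earlier samples too, which had 29.8 and 69.5 TPM at D0 and 33.5 and 50.2 TPM at W1. *Cstdc5*, one of the stefin-like protease inhibitors, had 21.8 and 37.6 TPM at W2 against 241 and 729.9 at W6 (log2 change 3.83, adjusted *P* = 0.0341). The keratin gene *Krt42* had 16.4 and 12.3 TPM at W2 against 106 and 354 at W6 (log2 change 3.67, adjusted *P* = 0.00388). The remaining 4 of the 12 largest rises were *Krt6a*, *Krt6b*, *Sprr1b* and *Sprr2d*, described below.

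Among the 12 largest falls, *Krt15* (chromosome 11, 100131758 to 100135928, GRCm38), a keratin of basal cells and of hair follicle stem cells, and *Ccl27a* had the highest TPM at W2. *Krt15* had 7757 and 6166 TPM at W2 against 429.5 and 1350 at W6 (log2 change −3.18 ± 0.44, adjusted *P* = 0.00445). Its levels at D0 (11240 and 11930 TPM) and W1 (10000 and 9055 TPM) were closer to those at W2. Among the other falls, *Ccl27a*, a chemokine of keratinocytes that attracts skin-homing T cells, had 8208 and 6118 TPM at W2 against 428 and 1500 at W6 (log2 change −3.14 ± 0.49, adjusted *P* = 0.00674). The entries *Gm13306* (−3.23) and *Gm13301* (−3.5), named here because they are near-identical copies of *Ccl27a* and can share its reads, fell by a like amount. *Ackr4*, a scavenger receptor for CCL19 and CCL21, had 103 and 98.2 TPM at W2 against 10.8 and 7.38 at W6 (log2 change −3.35 ± 0.48, adjusted *P* = 0.00503). *Ccl19* had 19.2 and 10.1 TPM at W2 against 0.295 and 0.649 at W6 (log2 change −3.36 ± 0.40, adjusted *P* = 0.00266). *Il22ra2*, a soluble decoy receptor for IL-22, had 41.6 and 67.6 TPM at W2 against 4.35 and 6.36 at W6 (log2 change −3.11, adjusted *P* = 0.00176). The W2 and W6 samples did not overlap in any of the genes named, which the choice of genes fixed.

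The other large falls were of varied function. *Krt32*, a keratin of the hair cuticle, had 28.6 and 33.1 TPM at W2 against 1.42 and 3.62 at W6 (log2 change −3.25, adjusted *P* = 0.00173). *Wnt16*, a WNT ligand, had 18 and 13.7 TPM at W2 against 1.57 and 0.358 at W6 (log2 change −3.16, adjusted *P* = 0.00205). *Slc38a4*, an amino acid transporter, had 49.2 and 17.8 TPM at W2 against 1.64 and 5.42 at W6 (log2 change −2.9, adjusted *P* = 0.0279). *Fxyd6*, a regulator of the sodium pump, had 64.4 and 46 TPM at W2 against 2.72 and 6.3 at W6 (log2 change −3.41, adjusted *P* = 0.00145). *Tmsb15b1*, a thymosin that binds actin monomers, had 27.9 and 38.5 TPM at W2 against 0.477 and 1.35 at W6 (log2 change −4.18, adjusted *P* = 0.0121). The histone gene *H2ac7* had 64.3 and 52.4 TPM at W2 against 4.71 and 9.41 at W6 (log2 change −2.94, adjusted *P* = 0.00166). Both of these had been lower at W1, when *Tmsb15b1* had 2.02 and 1.46 TPM and *H2ac7* 15.6 and 11.7 TPM, so that W2 was their highest timepoint.

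**Figure D2:**
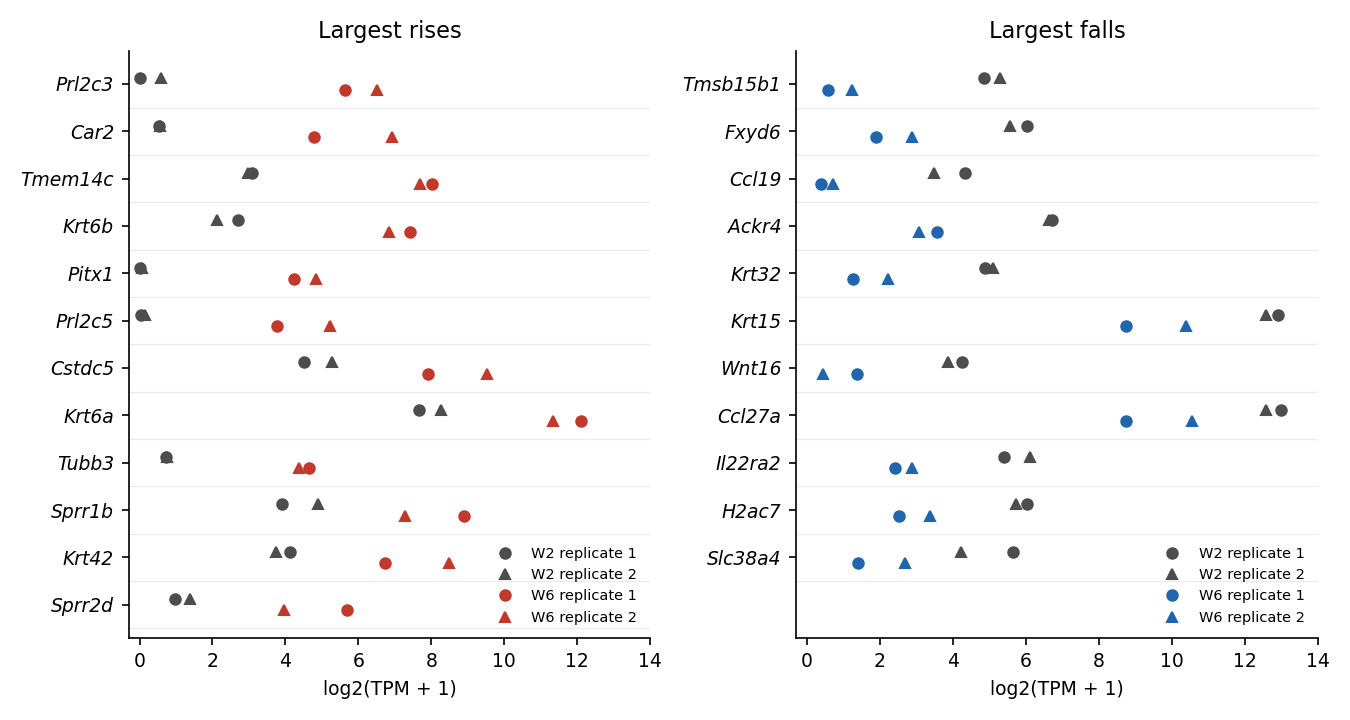
TPM on a log2(TPM + 1) axis of the 12 genes with the largest rises and 11 of the 12 with the largest falls from W2 to W6, 1 point for each sample. The 2 samples of each timepoint lie on one side of the other timepoint's samples for every gene shown, which is part of how they were chosen.

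The keratins of wounded epidermis rose together while the basal pair did not change by the test. All 4 stress keratins tested were higher at W6, against 7.99% of all genes, the median log2 change being 3.66. *Krt6a* (chromosome 15, 101689910 to 101694307, GRCm38) had 201 and 304 TPM at W2 against 4424 and 2603 at W6 (log2 change 3.77 ± 0.47, adjusted *P* = 0.0033). *Krt6b* had 5.51 and 3.33 TPM at W2 against 169 and 113 at W6 (log2 change 4.71 ± 0.43, adjusted *P* = 0.00131). *Krt16*, the usual partner of KRT6, had 43.7 and 46.7 TPM at W2 against 668 and 432 at W6 (log2 change 3.54 ± 0.31, adjusted *P* = 0.00114). *Krt17*, which is also a keratin of the outer root sheath and of basal cell carcinoma, had 2438 and 2937 TPM at W2 against 11560 and 6011 at W6 (log2 change 1.64 ± 0.30, adjusted *P* = 0.0127). At least 3 of the 4 were higher when any one sample from D0 to W6 was left out, though keratin genes of close sequence (*Krt6a* with *Krt6b*, and *Krt14* with *Krt16* and *Krt17*) can share reads. *Krt14* (log2 change 0.23, adjusted *P* = 0.424) and *Krt5* (log2 change −0.25, adjusted *P* = 0.322) did not pass the threshold.

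Among the keratins of differentiating layers, calls were few. Of 6 suprabasal keratins tested, none was higher and 2 were lower (against 8.31% of all genes). Without either of the D0 samples, 1 was higher, and the number lower was 1 without W2 replicate 1 or 2 or W6 replicate 1 or W1 replicate 1 or 2. *Krt77* had 219.6 and 181 TPM at W2 against 19.4 and 53.5 at W6 (log2 change −2.59 ± 0.66, adjusted *P* = 0.0349). *Krt80* had 244 and 232 TPM at W2 against 52.5 and 68.7 at W6 (log2 change −1.97 ± 0.26, adjusted *P* = 0.00402). *Krt10*, the defining keratin of the spinous layer, had 786 and 1010 TPM at W2 against 568 and 966 at W6 (log2 change −0.27, adjusted *P* = 0.633), and the samples overlapped. Its partner *Krt1* had 202 and 376 TPM at W2 against 524 and 1098 at W6 (log2 change 1.46, adjusted *P* = 0.111), both W6 samples lying above both W2 samples. None of the 4 keratins of simple epithelia passed limma's test (0 higher and 1 lower at an unadjusted *P* under 0.05), and *Krt8* had 2.73 and 0.302 TPM at W2 against 5.84 and 1.15 at W6 (log2 change 0.80, adjusted *P* = 0.442).

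Within the genes of the cornified envelope, the changes were uneven. Of 24 tested, 6 were higher (against 7.99% of all genes) and 1 lower, the median log2 change being 0.515. *Sprr1b*, a small proline-rich protein that is cross-linked into the envelope, had 14 and 28.7 TPM at W2 against 473 and 155 at W6 (log2 change 3.69 ± 0.73, adjusted *P* = 0.0158). *Sprr2d* had 0.958 and 1.62 TPM at W2 against 50.2 and 14.7 at W6 (log2 change 3.64 ± 0.50, adjusted *P* = 0.00435). *Sprr2h* had 1.83 and 1.39 TPM at W2 against 53.5 and 17.5 at W6 (log2 change 3.61 ± 0.46, adjusted *P* = 0.00345), although genes of the *Sprr2* family are alike enough to share reads. The envelope protein gene *Lce3c* had 0.248 and 0.257 TPM at W2 against 11.6 and 9.95 at W6 (log2 change 3.23 ± 0.18, adjusted *P* = 0.000153). It was under 1 TPM in every sample from D0 to W2 and was tested only through W6 and W12, so it could hardly be other than higher. *Klk6*, a secreted serine protease, had 11.8 and 19.5 TPM at W2 against 337 and 103 at W6 (log2 change 3.53 ± 0.51, adjusted *P* = 0.00532). *Ivl*, involucrin, the scaffold laid down first, had 6.72 and 6.58 TPM at W2 against 16.4 and 15.3 at W6 (log2 change 1.14 ± 0.23, adjusted *P* = 0.0174).

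Loricrin and filaggrin, the main proteins of the cornified cell, did not pass the test. *Lor*, loricrin, had 24.7 and 35.7 TPM at W2 against 24.4 and 8.07 at W6 (log2 change −1.02, adjusted *P* = 0.133). *Flg*, filaggrin, had 18.2 and 27.7 TPM at W2 against 38.7 and 13.1 at W6 (log2 change 0.013, adjusted *P* = 0.991), so the 2 W6 samples lay on either side of the W2 samples. *Ppl*, periplakin, which links the envelope to keratin filaments, was the single gene of the list to fall, with 77.2 and 86.2 TPM at W2 against 48.4 and 27.7 at W6 (log2 change −1.13 ± 0.30, adjusted *P* = 0.0387). The number lower was 0 without W2 replicate 1 or 2 or W6 replicate 2 or W1 replicate 1 or 2 and 3 without W6 replicate 1. Other settings gave 0 with no filter on TPM or median-ratio scaling or only W2 and W6 fitted or only ungrafted samples fitted or the replicate block or the length and GC correction. W6 replicate 1 was the higher of the 2 W6 samples for *Sprr1b*, *Sprr2d*, *Sprr2h*, *Klk6*, *Cnfn*, *Klk7*, *Tgm1* and *Cdsn*. With 1 sample left out, the count of higher members became 3 without W2 replicate 1 and 10 without W6 replicate 2. Its median was 0.294 without W6 replicate 1 and 1.21 without W6 replicate 2.

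The letters TGANTCA are in 7.81% of all 32851 RefSeq promoter windows of this length and in 6.38% of the 9615 tested genes that have one. They are in 7.19% of the genes that rose and 8.32% of those that fell. Of the 20 cornified envelope genes with a window, 10 hold them (50%), whether or not they changed. The windows of Sprr1b (chr3:92438730-92439029, minus strand) and Sprr2d (chr3:92338890-92339189, plus strand) are shown as the largest risers of that list with a match, which begins 111 and 193 bases before the start (GRCm38.p6, RefSeq, match in capitals). A match is a description of letters and not a binding site:
Sprr1b: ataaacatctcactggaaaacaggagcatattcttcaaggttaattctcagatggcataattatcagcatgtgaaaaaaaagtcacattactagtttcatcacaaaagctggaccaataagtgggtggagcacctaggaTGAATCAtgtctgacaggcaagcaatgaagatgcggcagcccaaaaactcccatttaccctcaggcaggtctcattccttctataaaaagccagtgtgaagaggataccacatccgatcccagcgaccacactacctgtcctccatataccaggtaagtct
Sprr2d: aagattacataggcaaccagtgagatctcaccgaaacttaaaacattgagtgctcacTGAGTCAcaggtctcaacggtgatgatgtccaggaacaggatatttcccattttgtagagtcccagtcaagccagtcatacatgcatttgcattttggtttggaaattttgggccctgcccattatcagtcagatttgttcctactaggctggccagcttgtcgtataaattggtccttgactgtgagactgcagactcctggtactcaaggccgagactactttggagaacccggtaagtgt

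Most genes that anchor basal cells to their substrate fell. Of 18 basement membrane and hemidesmosome genes tested, 13 were lower at W6 and none higher, against 8.31% of all genes, and both W6 samples were below both W2 samples in 14 of them (31.8% of all genes). The median log2 change was −1.416. Among the falls were chains of the anchoring laminin of skin. *Lama3* had 58.4 and 51.4 TPM at W2 against 19.8 and 18.4 at W6 (log2 change −1.47 ± 0.20, adjusted *P* = 0.00393). *Lamb3* had 344 and 353 TPM at W2 against 124 and 102 at W6 (log2 change −1.62 ± 0.25, adjusted *P* = 0.00646). *Col7a1*, the collagen of the anchoring fibrils, had 114 and 102 TPM at W2 against 38.6 and 36.1 at W6 (log2 change −1.5 ± 0.14, adjusted *P* = 0.00131). *Col17a1*, the transmembrane collagen of hemidesmosomes, had 630.5 and 599.6 TPM at W2 against 217 and 320.2 at W6 (log2 change −1.22 ± 0.25, adjusted *P* = 0.0181). The linkers of hemidesmosomes to keratin were lower too. *Plec* had 235 and 261 TPM at W2 against 90.1 and 58.8 at W6 (log2 change −1.75 ± 0.36, adjusted *P* = 0.0178). *Dst* had 115 and 127 TPM at W2 against 38.1 and 59.4 at W6 (log2 change −1.33 ± 0.24, adjusted *P* = 0.0109).

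The collagen IV genes of skin's second network, *Col4a5* and *Col4a6*, which lie head to head on the X chromosome, fell most of the list. *Col4a6* had 14.1 and 12.3 TPM at W2 against 1.8 and 2.81 at W6 (log2 change −2.12 ± 0.24, adjusted *P* = 0.00205). *Col4a5* had 20.3 and 16.2 TPM at W2 against 3.55 and 4.18 at W6 (log2 change −1.98 ± 0.20, adjusted *P* = 0.00166). The members that did not change by the test were *Lamb1*, *Lama1*, *Col18a1*, *Col4a1* and *Col4a2*, all but *Col18a1* below 6 TPM in these 4 samples. Single left-out samples brought the count of lower members to 4 without W2 replicate 1 and 5 without W2 replicate 2. Transcript length is a measured difference of this list, with a median of 6632 bases over its members, and long transcripts were lower at W6 across all genes (Spearman's rho of −0.232 over 13099 genes, which are not independent replicates). With a correction for length and GC content, chosen after seeing the data, 12 members were lower, with a median of −0.982.

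Of 10 integrins tested, 4 were lower (against 8.31%) and 1 higher (against 7.99%). *Itga6*, which encodes the CD49f used for sorting and pairs with *Itgb4* in hemidesmosomes, had 185 and 159 TPM at W2 against 102 and 111 at W6 (log2 change −0.68 ± 0.20, adjusted *P* = 0.0476). *Itgb4* had 171 and 174 TPM at W2 against 95 and 76.7 at W6 (log2 change −1.01 ± 0.27, adjusted *P* = 0.0408). *Itga3*, the alpha chain of the laminin receptor of focal contacts, had 156 and 145 TPM at W2 against 45.7 and 40.4 at W6 (log2 change −1.78 ± 0.28, adjusted *P* = 0.00674). *Itgb1*, the beta chain shared by most of them, had 104 and 94.6 TPM at W2 against 92.5 and 127 at W6 (log2 change 0.13, adjusted *P* = 0.648). *Itgb6*, a chain of the wound-induced fibronectin and TGF-beta activating integrin, was the one that rose, with 3.44 and 4.82 TPM at W2 against 7.28 and 8.67 at W6 (log2 change 0.82 ± 0.23, adjusted *P* = 0.0435). It was not called with median-ratio scaling, no filter on TPM, in fits of only ungrafted samples or only W2 and W6, or without any one sample of W1, W2 or W6. In fits that left out 1 sample, the lower members numbered 0 without W2 replicate 1, 1 without W2 replicate 2 or W1 replicate 1 or 2 and 2 without W6 replicate 1 or 2. In alternative fits it became 1 with no filter on TPM or no variance trend and 2 with median-ratio scaling or only W2 and W6 fitted or only ungrafted samples fitted or the replicate block.

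Genes of the contacts between cells had calls in both directions. Of 17 desmosome and adherens junction genes, 2 were higher (against 7.99% of all genes) and 3 lower (against 8.31%) (median −0.33). The list's median came to −0.195 with the length and GC correction. *Cdh1*, E-cadherin, had 551 and 466 TPM at W2 against 229 and 145 at W6 (log2 change −1.47 ± 0.24, adjusted *P* = 0.00755). P-cadherin, *Cdh3*, had 66.5 and 59 TPM at W2 against 38 and 36.9 at W6 (log2 change −0.73 ± 0.20, adjusted *P* = 0.0431). *Dsg1b*, a desmosomal cadherin, had 10.5 and 13 TPM at W2 against 34.4 and 25.3 at W6 (log2 change 1.26 ± 0.19, adjusted *P* = 0.00638). *Dsc2* had 3.39 and 3.42 TPM at W2 against 10 and 9.07 at W6 (log2 change 1.26 ± 0.29, adjusted *P* = 0.0247). The plaque gene *Dsp* had 156 and 162 TPM at W2 against 158 and 148 at W6 (log2 change −0.058, adjusted *P* = 0.787). Of 15 claudin and gap junction genes, 2 were higher (against 7.99%) and 1 lower (against 8.31%). *Gjb2* (connexin 26) rose, with 2.38 and 1.63 TPM at W2 against 10.5 and 8.18 at W6 (log2 change 1.78 ± 0.25, adjusted *P* = 0.00497). *Gja1* (connexin 43) rose too, with 30.7 and 29.9 TPM at W2 against 79.7 and 166 at W6 (log2 change 1.89 ± 0.33, adjusted *P* = 0.0101). *Cldn1*, the main claudin of the epidermal barrier, fell, with 446 and 416 TPM at W2 against 199.8 and 138 at W6 (log2 change −1.37 ± 0.23, adjusted *P* = 0.0095).

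**Figure D3:**
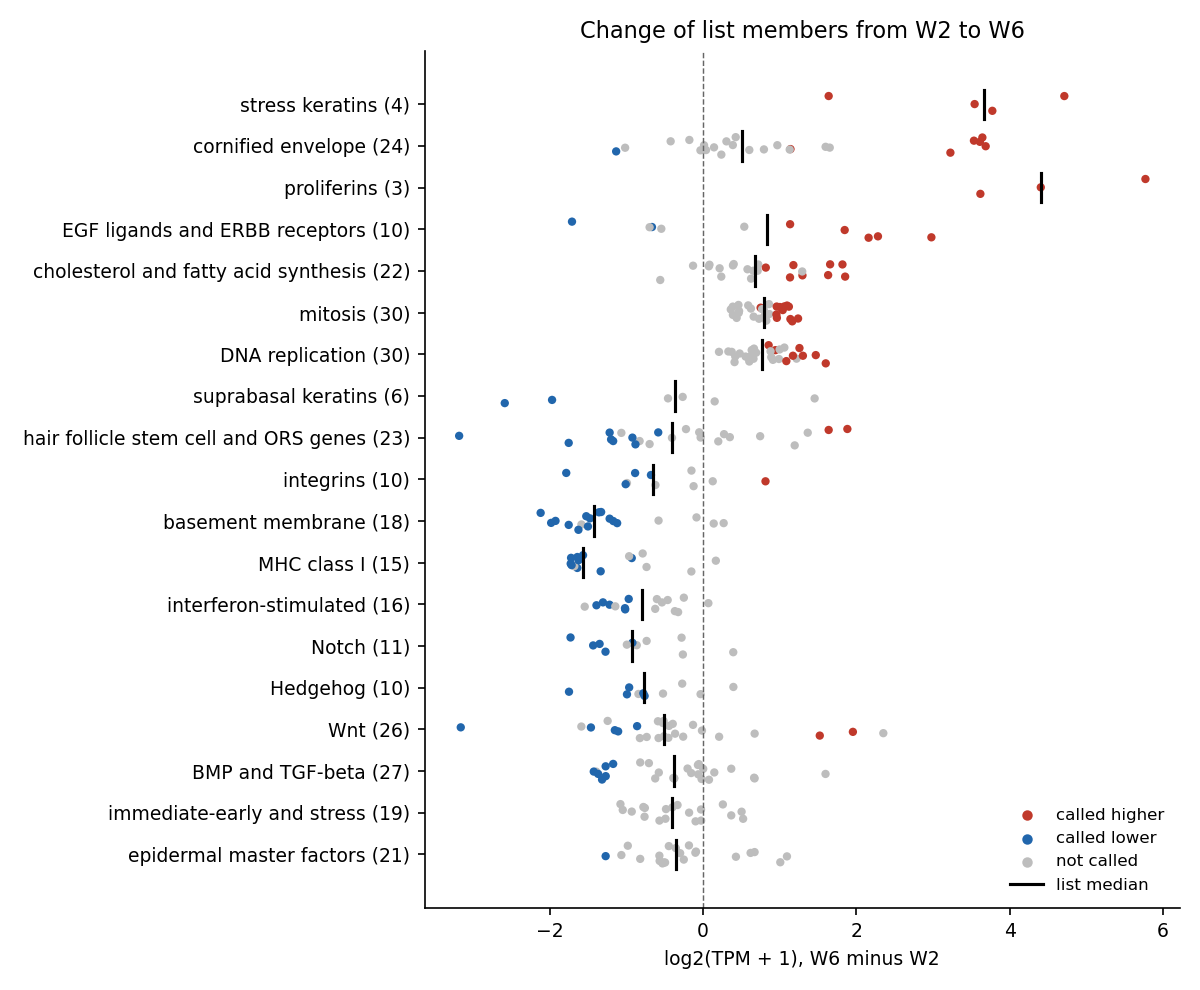
Log2 change from W2 to W6 of every tested member of the main gene lists, 1 point for each gene, in colour where it differed at an adjusted *P* under 0.05, with the median of each list as a bar. The stress keratins lie wholly to the right of 0, the basement membrane genes that differed lie wholly to the left, and all 30 mitosis genes lie to the right.

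Most genes that load and display antigen on MHC class I fell. Of 15 tested, 9 were lower (against 8.31% of all genes) and none higher, the median log2 change being −1.565. The classical heavy chain *H2-K1* had 3514 and 2422 TPM at W2 against 862 and 1014 at W6 (log2 change −1.64 ± 0.22, adjusted *P* = 0.00409). *H2-D1*, the other one, had 5295 and 2954 TPM at W2 against 1203 and 1187 at W6 (log2 change −1.73 ± 0.39, adjusted *P* = 0.0232). The peptide transporter genes fell as well, *Tap1* having 181 and 132 TPM at W2 against 48.5 and 44.5 at W6 (log2 change −1.71 ± 0.26, adjusted *P* = 0.00638). *Tap2* had 112 and 88 TPM at W2 against 26.9 and 32.3 at W6 (log2 change −1.72 ± 0.25, adjusted *P* = 0.00518). *Psmb8*, a catalytic subunit of the immunoproteasome, had 319 and 197 TPM at W2 against 64.7 and 98.3 at W6 (log2 change −1.64 ± 0.29, adjusted *P* = 0.0115). *Tapbp*, tapasin, had 325 and 274 TPM at W2 against 126 and 109.8 at W6 (log2 change −1.33 ± 0.22, adjusted *P* = 0.00849). *B2m*, the light chain, had 3178 and 2344 TPM at W2 against 1247 and 1645 at W6 (log2 change −0.93 ± 0.23, adjusted *P* = 0.0306). The heavy chain genes are alike in sequence and can share reads, and *H2-Q6*, *H2-T22* and *H2-T23*, which were not called, overlapped between timepoints. The number lower was 1 without W2 replicate 1. The count was also 5 with no filter on TPM.

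Genes that interferon is known to induce fell in part. Of 16 tested, 6 were lower (against 8.31% of all genes) and none higher, with a median of −0.796. *Bst2*, tetherin, had 14.8 and 9.24 TPM at W2 against 3.51 and 4.24 at W6 (log2 change −1.39 ± 0.23, adjusted *P* = 0.00803). *Irf9*, which transmits the signal, had 22.5 and 16.4 TPM at W2 against 4.49 and 11.2 at W6 (log2 change −1.3 ± 0.33, adjusted *P* = 0.034). *Ifi27* had 274 and 238 TPM at W2 against 103 and 154 at W6 (log2 change −1.01, adjusted *P* = 0.0129). *Irf7* had 5.95 and 3.03 TPM at W2 against 1.71 and 1.7 at W6 (log2 change −0.97, adjusted *P* = 0.047). *Gbp2* had 5.2 and 2.42 TPM at W2 against 0.636 and 1.39 at W6 (log2 change −1.22, adjusted *P* = 0.0498). With 1 sample left out, the count of lower members became 0 without W2 replicate 1, 1 without W2 replicate 2, 2 without W6 replicate 1 and 3 without W1 replicate 1 or 2. Under other settings it was 0 with only W2 and W6 fitted, 2 with no filter on TPM and 3 with only ungrafted samples fitted. Leukocyte markers were uneven. *Cd74*, the invariant chain of MHC class II, had 21.6 and 17 TPM at W2 against 3.21 and 2.09 at W6 (log2 change −2.49, adjusted *P* = 0.00334). *H2-Ab1*, an MHC class II chain, had 15.4 and 8.27 TPM at W2 against 17.6 and 2.81 at W6 (log2 change −0.55, adjusted *P* = 0.556), and its samples overlapped. With the 4 untested members, at a mean of under 1 TPM, the macrophage and Langerhans markers summed to 38.1 and 26.2 TPM at W2 against 21.3 and 5.47 at W6. *Ptprc*, which encodes CD45, had 0.0226 and 0.00664 TPM at W2 against 0.0467 and 0.30 at W6, and the T cell markers summed to 1.14 and 1.38 TPM at W2 against 0.445 and 1.36 at W6. The part of leukocyte RNA in these falls was not tested.

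The interferon-stimulated response element was searched on both strands as a pair of GAAA with any 2 bases between them. It is in 3.44% of all promoter windows, in 3.57% of those of tested genes, in 3.21% of those of genes that fell and in 7 of the 12 interferon-stimulated genes with a window (58.3%). The windows of Bst2 (chr8:71537423-71537722, minus strand, 2 overlapping matches from 130 and 124 bases before the start) and Gbp2 (chr3:142620413-142620712, plus strand, 1 match from 59 bases before the start, read on the other strand) are those of the largest falls of the list with a match (GRCm38.p6, RefSeq, matches in capitals):
Bst2: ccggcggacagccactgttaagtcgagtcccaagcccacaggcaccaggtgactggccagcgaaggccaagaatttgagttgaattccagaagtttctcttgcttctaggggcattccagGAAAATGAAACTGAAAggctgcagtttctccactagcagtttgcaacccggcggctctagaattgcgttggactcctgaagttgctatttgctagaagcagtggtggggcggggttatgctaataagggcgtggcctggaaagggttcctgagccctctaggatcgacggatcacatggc
Gbp2: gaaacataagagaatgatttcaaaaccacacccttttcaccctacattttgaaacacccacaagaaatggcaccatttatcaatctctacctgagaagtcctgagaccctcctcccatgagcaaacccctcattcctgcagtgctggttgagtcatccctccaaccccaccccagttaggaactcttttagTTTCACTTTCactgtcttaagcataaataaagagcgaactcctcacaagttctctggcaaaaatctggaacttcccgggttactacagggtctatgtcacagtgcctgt

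Genes of the cell cycle were higher in both W6 samples, and a part of them passed the test. Of 30 genes of mitosis, 13 were higher (against 7.99%) and none lower, and in all 30 both W6 samples were above both W2 samples (33.2% of all genes), the median log2 change being 0.799. *Ttk*, a kinase of the spindle checkpoint, had 7.99 and 7.62 TPM at W2 against 16.9 and 23.2 at W6 (log2 change 1.24 ± 0.22, adjusted *P* = 0.0115). *Ccnb1*, cyclin B1, had 66.6 and 75.4 TPM at W2 against 156 and 158 at W6 (log2 change 1.14 ± 0.22, adjusted *P* = 0.0141). The mitotic kinase *Plk1* had 27.4 and 27.8 TPM at W2 against 69.3 and 54 at W6 (log2 change 1.12 ± 0.23, adjusted *P* = 0.0182). Another, *Aurka*, had 20 and 20.2 TPM at W2 against 42.9 and 43.1 at W6 (log2 change 1.06 ± 0.16, adjusted *P* = 0.00575). *Bub1*, another checkpoint kinase, had 6.51 and 5.89 TPM at W2 against 12.6 and 15.1 at W6 (log2 change 1.04, adjusted *P* = 0.0145). The marker *Mki67* had 17.6 and 20.5 TPM at W2 against 23.4 and 29.1 at W6 (log2 change 0.44, adjusted *P* = 0.375) and did not pass the threshold. Single left-out samples brought the count of higher members to 0 without W2 replicate 1 or 2, 5 without W6 replicate 2 and 21 without D0 replicate 1 or 2, while the direction was the same in all 4 samples. Other settings gave 5 with no filter on TPM and 8 with only ungrafted samples fitted.

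All 30 genes of DNA replication had a log2 change above 0, and a part of them passed the test. Of the 30, 8 were higher (against 7.99%) and none lower, and the median was 0.775. In 29 of them both W6 samples were above both W2 samples (33.2% of all genes). *Ccne1*, cyclin E1, had 5.06 and 6.76 TPM at W2 against 19.5 and 20.1 at W6 (log2 change 1.6 ± 0.42, adjusted *P* = 0.037). *Rrm2*, the small subunit of ribonucleotide reductase, had 57.5 and 62.8 TPM at W2 against 174 and 163 at W6 (log2 change 1.47 ± 0.41, adjusted *P* = 0.0423). *Tyms*, thymidylate synthase, had 97.6 and 84.5 TPM at W2 against 199 and 239.7 at W6 (log2 change 1.26 ± 0.30, adjusted *P* = 0.028). *Pcna*, the polymerase clamp, had 111 and 96.5 TPM at W2 against 146 and 184 at W6 (log2 change 0.66, adjusted *P* = 0.133). In fits that left out 1 sample, the higher members numbered 0 without W2 replicate 1 or 2 or W6 replicate 2, 1 without W1 replicate 1, 2 without W1 replicate 2, 5 without W6 replicate 1 and 21 without D0 replicate 1 or 2. In alternative fits it became 0 with no filter on TPM, 2 with only ungrafted samples fitted, 3 with the replicate block and 5 with a pseudocount of 0.1. Of 11 other G1 genes (D-type cyclins, their kinases, CDK inhibitors and *Rb1*), none was higher (against 7.99%) and 1 lower (against 8.31%). *Ccnd2*, the D-type cyclin with the highest level in these cells, fell, with 1397 and 1394 TPM at W2 against 764 and 504 at W6 (log2 change −1.17 ± 0.21, adjusted *P* = 0.0121), beside *Ccnd1* with 16.8 and 28.7 TPM at W2 against 29.5 and 65.8 at W6 (log2 change 0.97, adjusted *P* = 0.103).

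The cell cycle genes homology region (CHR) was searched as TTTGAA on both strands, a short sequence that is in 17.9% of all windows, in 14.7% of those of tested genes, in 18.3% of those of genes that rose and in 15% of those that fell. It is in 20 of the 26 mitosis genes with a window (76.9%). The windows of Ttk (chr9:83834439-83834738, plus strand, match from base 8 after the start, on the other strand) and Plk1 (chr7:122159185-122159484, plus strand, match from base 31 after the start) are those of the largest rises of the list with a match (GRCm38.p6, RefSeq, match in capitals):
Ttk: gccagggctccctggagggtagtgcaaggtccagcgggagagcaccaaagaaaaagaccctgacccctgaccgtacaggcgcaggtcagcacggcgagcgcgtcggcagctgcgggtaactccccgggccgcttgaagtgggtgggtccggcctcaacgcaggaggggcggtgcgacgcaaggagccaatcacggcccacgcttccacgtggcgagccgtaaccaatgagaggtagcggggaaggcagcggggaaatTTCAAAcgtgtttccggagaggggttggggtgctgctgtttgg
Plk1: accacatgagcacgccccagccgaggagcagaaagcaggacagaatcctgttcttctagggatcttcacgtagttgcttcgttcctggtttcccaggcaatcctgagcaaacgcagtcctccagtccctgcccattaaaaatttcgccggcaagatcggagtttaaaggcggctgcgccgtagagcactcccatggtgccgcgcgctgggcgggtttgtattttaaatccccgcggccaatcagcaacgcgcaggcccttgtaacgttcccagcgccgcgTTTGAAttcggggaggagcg

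**Figure D4:**
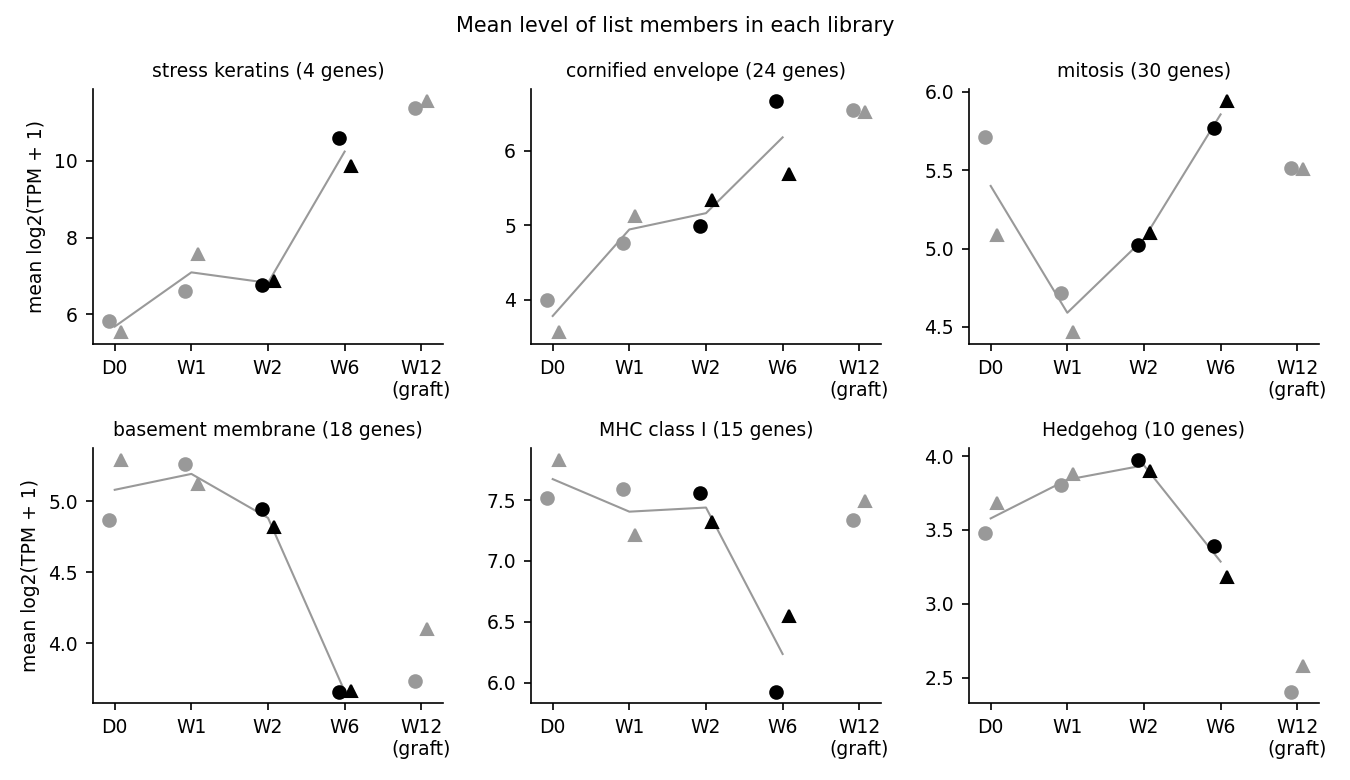
Mean log2(TPM + 1) over the tested members of 6 gene lists in each sample of the time course, by timepoint, with a line through the timepoint means from D0 to W6. The mean over the mitosis genes was 5.03 and 5.10 at W2 and 5.77 and 5.94 at W6, and that over the basement membrane genes 4.94 and 4.82 at W2 and 3.662 and 3.665 at W6. The W12 cells came from grafted skin.

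Most ligands of the EGF receptor family rose. Of 10 genes of the family, 5 of 6 ligands were higher (against 7.99% of all genes) and 2 of 3 receptors lower (against 8.31%). The other member is a feedback inhibitor, *Errfi1*, with 83.7 and 79.5 TPM at W2 against 52.1 and 59.4 at W6 (log2 change −0.54, adjusted *P* = 0.255). *Nrg1*, neuregulin 1, a ligand of ERBB3 and ERBB4, had 2.96 and 3.83 TPM at W2 against 36.3 and 30.9 at W6 (log2 change 2.98 ± 0.29, adjusted *P* = 0.00158). *Areg*, amphiregulin, had 5.02 and 2.71 TPM at W2 against 26.8 and 18 at W6 (log2 change 2.28 ± 0.37, adjusted *P* = 0.00803). *Ereg*, epiregulin, had 0.403 and 0.391 TPM at W2 against 5.78 and 4.75 at W6 (log2 change 2.16 ± 0.21, adjusted *P* = 0.00158). It was under 1 TPM in every sample from D0 to W2 and was tested only through W6 and W12, so it could hardly be other than higher. *Hbegf* had 22.7 and 16 TPM at W2 against 85.1 and 59.6 at W6 (log2 change 1.85 ± 0.29, adjusted *P* = 0.00711). *Epgn*, epigen, had 9.89 and 8.11 TPM at W2 against 17.7 and 24.7 at W6 (log2 change 1.14, adjusted *P* = 0.0205). At D0, *Hbegf* had 181 and 317 TPM and *Epgn* 300 and 197, all above both of their W6 samples. *Areg* had 33.6 and 15.3 TPM at D0, which overlapped with W6, while *Nrg1* and *Ereg* were lower at D0 than at W6. The ligand *Tgfa* was not called, with 5.94 and 7.5 TPM at W2 against 10.3 and 10 at W6 (log2 change 0.54, adjusted *P* = 0.16), both W6 samples lying above both W2 samples. On the receptor side, *Egfr* had 46.1 and 38.7 TPM at W2 against 22.2 and 31.1 at W6 (log2 change −0.67 ± 0.19, adjusted *P* = 0.0494). *Erbb3* had 64.3 and 69.1 TPM at W2 against 28.9 and 13.3 at W6 (log2 change −1.71 ± 0.35, adjusted *P* = 0.0174). *Erbb2* had 79.2 and 71 TPM at W2 against 56.8 and 37 at W6 (log2 change −0.70, adjusted *P* = 0.126). The number of receptors lower was 0 without W2 replicate 1 or 2 and 1 without W6 replicate 1 or 2 or W1 replicate 1 or 2. The count was also 0 with no filter on TPM or only W2 and W6 fitted and 1 with a pseudocount of 0.1 or no variance trend or only ungrafted samples fitted or the replicate block. The number of ligands higher was 2 without W2 replicate 2.

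Of the 15 IGF and FGF genes tested, 3 were lower (against 8.31% of all genes), all of them receptors for fibroblast growth factors. The number lower was 0 without W2 replicate 1 or 2 and 1 without W6 replicate 1. Under other settings it was 0 with no filter on TPM. *Fgfr3* had 86.5 and 98.9 TPM at W2 against 32.4 and 30.7 at W6 (log2 change −1.52 ± 0.27, adjusted *P* = 0.0114). *Fgfr2* had 129.6 and 110.3 TPM at W2 against 44.7 and 56.9 at W6 (log2 change −1.23 ± 0.26, adjusted *P* = 0.0188). *Fgfr1* had 56.4 and 57.3 TPM at W2 against 30.6 and 29 at W6 (log2 change −0.91 ± 0.26, adjusted *P* = 0.0455). Of the same list 3 rose (against 7.99%), the ligand *Fgf1* and the genes of 2 IGF-binding proteins. *Fgf1* had 0.99 and 0.30 TPM at W2 against 3.06 and 6.48 at W6 (log2 change 1.78 ± 0.33, adjusted *P* = 0.0132). It was under 1 TPM in every sample from D0 to W2 and was tested only through W6 and W12. *Igfbp6* had 0.586 and 1.86 TPM at W2 against 6.66 and 7.85 at W6 (log2 change 1.95, adjusted *P* = 0.00849). *Igfbp7* had 14.5 and 25.7 TPM at W2 against 62 and 99.9 at W6 (log2 change 1.97, adjusted *P* = 0.0158). *Igf1r* had 4.57 and 6.0 TPM at W2 against 2.44 and 3.48 at W6 (log2 change −0.67, adjusted *P* = 0.124). Of 10 ETS factors, 2 rose (against 7.99%) and 1 fell (against 8.31%). *Etv4*, a known target of FGF and EGF signalling, had 11.9 and 21 TPM at W2 against 67.3 and 39.9 at W6 (log2 change 1.65 ± 0.36, adjusted *P* = 0.0223). *Elk3* had 2.21 and 1.87 TPM at W2 against 5.36 and 6.75 at W6 (log2 change 1.21 ± 0.23, adjusted *P* = 0.0134). *Elf4* fell, with 8.36 and 8.19 TPM at W2 against 4.73 and 2.72 at W6 (log2 change −1.01 ± 0.27, adjusted *P* = 0.0408). The rises numbered 0 without W2 replicate 1 or 2 and 1 without W6 replicate 1, and the falls 0 without W2 replicate 1 or 2 or W6 replicate 2 or W1 replicate 1 or 2 and 2 without D0 replicate 1 or 2. *Etv5*, a relative of *Etv4*, had 10.8 and 16.2 TPM at W2 against 32 and 29.2 at W6 (log2 change 1.14, adjusted *P* = 0.0543).

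Signalling pathways of the hair follicle and epidermis had more falls than rises. Of 11 NOTCH genes, 5 were lower (against 8.31% of all genes) and none higher, with a median of −0.921. *Notch1* had 39.6 and 40.7 TPM at W2 against 19.6 and 13 at W6 (log2 change −1.27 ± 0.31, adjusted *P* = 0.0298). The ligand *Jag2* had 258 and 276 TPM at W2 against 129 and 74.3 at W6 (log2 change −1.43 ± 0.31, adjusted *P* = 0.0205). Another, *Dll1*, had 41.8 and 34.6 TPM at W2 against 13.3 and 8.71 at W6 (log2 change −1.73 ± 0.41, adjusted *P* = 0.0289). *Hes1*, the classical target, had 207 and 147 TPM at W2 against 101 and 89.9 at W6 (log2 change −0.86, adjusted *P* = 0.101). The number lower was 0 without W2 replicate 1 or 2 or W6 replicate 2 and 2 without W1 replicate 1 or 2. Other settings gave 0 with no filter on TPM, 2 with only W2 and W6 fitted or only ungrafted samples fitted and 3 with the length and GC correction. The median of the list became −0.603 with the length and GC correction.

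Of 10 Hedgehog genes, 5 were lower (against 8.31% of all genes) and none higher, with a median of −0.77. The transducer *Smo* had 74.2 and 84.8 TPM at W2 against 56.4 and 37.2 at W6 (log2 change −0.78 ± 0.20, adjusted *P* = 0.0339). The factor *Gli2* had 3.62 and 4.27 TPM at W2 against 1.87 and 1.14 at W6 (log2 change −0.99 ± 0.23, adjusted *P* = 0.0261). *Gli3* had 6.75 and 6.36 TPM at W2 against 3.57 and 3.34 at W6 (log2 change −0.76 ± 0.19, adjusted *P* = 0.0337). The other falls were of the co-receptors *Cdon* and *Gas1*. *Cdon* had 2.51 and 2.64 TPM at W2 against 0.54 and 1.18 at W6 (log2 change −0.96 ± 0.23, adjusted *P* = 0.0291). *Gas1* had 442 and 368 TPM at W2 against 199 and 71.3 at W6 (log2 change −1.75 ± 0.46, adjusted *P* = 0.0366). *Boc*, another co-receptor, had 33.5 and 26.9 TPM at W2 against 18.5 and 14.4 at W6 (log2 change −0.84, adjusted *P* = 0.0802). *Ptch1*, receptor and target of the pathway, had 4.11 and 3.62 TPM at W2 against 2.15 and 2.63 at W6 (log2 change −0.52, adjusted *P* = 0.181), and *Gli1*, the most direct target, averaged under 1 TPM in the time course and was not tested. With 1 sample left out, the count of lower members became 0 without W2 replicate 1 or 2, 1 without W6 replicate 2 and 2 without W1 replicate 1 or 2. In alternative fits it became 0 with no filter on TPM or only W2 and W6 fitted, 2 with a filter at 5 TPM or only ungrafted samples fitted and 3 with the replicate block or the length and GC correction.

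Of 26 WNT genes, 2 were higher, a share near the 7.99% of all genes, and 5 lower (against 8.31%), with the median at −0.512. The number higher was 0 without W2 replicate 1 or 2 or W6 replicate 2, 1 without W1 replicate 1 or 2 and 4 without W6 replicate 1. The count was also 0 with no filter on TPM or only W2 and W6 fitted and 1 with only ungrafted samples fitted. The WNT target gene *Axin2*, which dampens the pathway, had 8.78 and 9.0 TPM at W2 against 2.54 and 4.61 at W6 (log2 change −1.15 ± 0.30, adjusted *P* = 0.0356). *Rnf43*, another target that dampens it, had 41.2 and 25.6 TPM at W2 against 12.5 and 9.94 at W6 (log2 change −1.46 ± 0.29, adjusted *P* = 0.0161). The other falls were those of the ligands *Wnt16* and *Wnt6* (log2 change −1.11, adjusted *P* = 0.00813) and the receptor *Fzd7* (log2 change −0.86, adjusted *P* = 0.0318). The non-canonical ligand *Wnt5a* rose, with 0.45 and 0.61 TPM at W2 against 1.72 and 6.1 at W6 (log2 change 1.52 ± 0.39, adjusted *P* = 0.0353). *Nkd2*, an inhibitor of Dishevelled, rose too, with 24.8 and 14.1 TPM at W2 against 49.9 and 114 at W6 (log2 change 1.96 ± 0.42, adjusted *P* = 0.0199). Single left-out samples brought the count of lower members to 1 without W2 replicate 1, 2 without W2 replicate 2, 3 without W1 replicate 1 or 2 and 12 without D0 replicate 1 or 2. Under other settings it was 2 with no filter on TPM or only W2 and W6 fitted. Its median was −0.289 with the length and GC correction.

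Of 27 BMP and TGF-beta genes, 6 were lower (against 8.31% of all genes) and none higher, with a median of −0.376. The BMP target *Id3* had 228 and 151 TPM at W2 against 86.2 and 67.9 at W6 (log2 change −1.27 ± 0.32, adjusted *P* = 0.0326). The BMP antagonist *Nog* had 2.93 and 3.63 TPM at W2 against 0.671 and 0.634 at W6 (log2 change −1.37 ± 0.25, adjusted *P* = 0.0125). Both members named next act in TGF-beta signalling. The co-receptor *Tgfbr3* had 24.1 and 24.1 TPM at W2 against 9.74 and 8.45 at W6 (log2 change −1.32 ± 0.21, adjusted *P* = 0.00803). The ligand *Tgfb2* had 2.79 and 1.91 TPM at W2 against 0.156 and 0.319 at W6 (log2 change −1.43 ± 0.27, adjusted *P* = 0.0138). *Id1*, another BMP target, had 106 and 68 TPM at W2 against 189.7 and 97.4 at W6 (log2 change 0.67, adjusted *P* = 0.164), and its samples overlapped. In fits that left out 1 sample, the lower members numbered 0 without W2 replicate 1 or 2. Other settings gave 3 with a filter at 5 TPM. The list's median came to −0.204 with the length and GC correction. Of 13 YAP and TEAD genes, 4 fell (against 8.31% of all genes) and none rose. The target *Ccn2* had 385 and 226 TPM at W2 against 87.6 and 96.8 at W6 (log2 change −1.67 ± 0.33, adjusted *P* = 0.0161). *Wwtr1*, which encodes TAZ, had 36.1 and 29.6 TPM at W2 against 10.6 and 13.2 at W6 (log2 change −1.39 ± 0.25, adjusted *P* = 0.0115), and the number lower was 0 without W2 replicate 1, 1 without W2 replicate 2 or W6 replicate 2 and 2 without W1 replicate 1 or 2. In alternative fits it became 1 with no filter on TPM and 2 with only ungrafted samples fitted.

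Genes of hair follicle stem cells and the outer root sheath went both ways. Of 23 tested, 8 were lower (against 8.31% of all genes) and 2 higher, a share near the 7.99% of all genes, with a median of −0.405. Beside *Krt15* and *Col17a1*, the falls included receptors. *Vdr*, the vitamin D receptor, had 198 and 166 TPM at W2 against 84 and 73.1 at W6 (log2 change −1.2 ± 0.16, adjusted *P* = 0.0039). *Lrig1*, a marker of the junctional zone, had 242 and 214 TPM at W2 against 121 and 36.9 at W6 (log2 change −1.75 ± 0.44, adjusted *P* = 0.0326). *Lgr4*, a receptor for R-spondins, had 53.9 and 44.4 TPM at W2 against 28.8 and 22.3 at W6 (log2 change −0.92 ± 0.24, adjusted *P* = 0.0374). Of its transcription factor genes, *Nfatc1* and *Nfib* were called. *Nfatc1* had 71.8 and 62.7 TPM at W2 against 46.6 and 27.7 at W6 (log2 change −0.88 ± 0.24, adjusted *P* = 0.0427). *Nfib* had 98.5 and 93.3 TPM at W2 against 58 and 69.9 at W6 (log2 change −0.58 ± 0.15, adjusted *P* = 0.0367). The rises were *Krt17* and *Cd34*, a surface marker of hair follicle stem cells that had been sorted against, with 0.198 and 0.355 TPM at W2 against 2.66 and 5.04 at W6 (log2 change 1.88 ± 0.35, adjusted *P* = 0.0131). *Cd34* was under 1 TPM in every sample from D0 to W2 and was tested only through W6 and W12, so it could hardly be other than higher. *Lhx2* had 2.13 and 2.86 TPM at W2 against 1.7 and 1.55 at W6 (log2 change −0.40, adjusted *P* = 0.437). *Foxc1* had 26.6 and 26.5 TPM at W2 against 34.4 and 19.1 at W6 (log2 change −0.05, adjusted *P* = 0.919). The number lower was 1 without W2 replicate 1, 2 without W2 replicate 2, 3 without W1 replicate 1 or 2 and 5 without W6 replicate 2. The count was also 2 with no filter on TPM and 3 with only W2 and W6 fitted or only ungrafted samples fitted.

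Of 21 epidermal master factors, 1 was lower, *Id3* (against 8.31% of all genes), and none higher (against 7.99%). *Trp63*, the factor that defines stratified epithelium, had 275 and 219 TPM at W2 against 159.9 and 181 at W6 (log2 change −0.53, adjusted *P* = 0.264). *Gata3* had 170.5 and 116 TPM at W2 against 53.1 and 94.2 at W6 (log2 change −0.98, adjusted *P* = 0.0537). *Grhl3*, a factor of barrier formation, had 12.7 and 17.8 TPM at W2 against 56.5 and 19.5 at W6 (log2 change 1.09, adjusted *P* = 0.12). With 1 sample left out, the count of lower members became 0 without W2 replicate 1 or 2, 3 without W6 replicate 1 and 5 without D0 replicate 1 or 2, while 4 members were higher without W6 replicate 2. With the length and GC correction 4 were lower and 1 higher.

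Of 8 SOX genes tested, 2 were higher (against 7.99% of all genes) and 2 lower (against 8.31%). *Sox13* rose, with 2.84 and 2.5 TPM at W2 against 10.6 and 8.3 at W6 (log2 change 1.5 ± 0.26, adjusted *P* = 0.00946). *Sox15* rose too, with 54 and 67.3 TPM at W2 against 117 and 103 at W6 (log2 change 0.85 ± 0.18, adjusted *P* = 0.0188). *Sox21*, a factor of hair cuticle and epidermis, fell, with 153 and 121 TPM at W2 against 54.4 and 46.2 at W6 (log2 change −1.42 ± 0.15, adjusted *P* = 0.00189). *Sox4* fell too, with 57.8 and 57.2 TPM at W2 against 25.9 and 26.9 at W6 (log2 change −1.09 ± 0.16, adjusted *P* = 0.00599). The 3 genes tested of the RUNX list were *Runx1*, *Runx2* and *Cbfb*, which encodes the partner subunit of RUNX factors. None changed by limma's test (0 higher and 0 lower at an unadjusted *P* under 0.05). *Runx3* averaged under 1 TPM in the time course and was not tested. *Runx1* had 74 and 53.8 TPM at W2 against 42.5 and 54 at W6 (log2 change −0.39, adjusted *P* = 0.228). *Runx2* had 1.44 and 2.13 TPM at W2 against 2.86 and 2.21 at W6 (log2 change 0.35, adjusted *P* = 0.366). In promoter windows, the RUNX letters TGTGGT are in 12.8% of the windows of genes that rose and in 15.1% of those that fell, beside 14.4% of tested genes, and the SOX letters AACAAT in 7.19% and 7.02%, beside 6.99% (both strands). Of 12 AP-1 genes, *Maff* alone differed (against 8.31% of all genes lower), with 11.5 and 13.9 TPM at W2 against 7.59 and 3.47 at W6 (log2 change −1.14 ± 0.31, adjusted *P* = 0.0403). The number lower was 0 without W2 replicate 1 or 2 or W6 replicate 2 or W1 replicate 1 or 2 and 2 without W6 replicate 1. Under other settings it was 0 with no filter on TPM or median-ratio scaling or quantile normalization or only W2 and W6 fitted or only ungrafted samples fitted or the replicate block. *Fosl1* had 46 and 18 TPM at W2 against 83.5 and 55.6 at W6 (log2 change 1.21, adjusted *P* = 0.136). *Fos* had 3005 and 1449 TPM at W2 against 1986 and 1916 at W6 (log2 change −0.10, adjusted *P* = 0.876). None of 19 immediate-early genes differed by limma's test (0 higher and 4 lower at an unadjusted *P* under 0.05), and their levels varied within a timepoint, with *Nr4a1* at 238 and 77 TPM at W2 against 236 and 158 at W6.

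Several genes of cholesterol synthesis rose. Of 22 genes of cholesterol and fatty acid synthesis, 8 were higher (against 7.99%) and none lower, with a median of 0.684, and the 8 were all of the sterol branch. *Idi1*, isopentenyl isomerase, had 23.2 and 19.5 TPM at W2 against 85.5 and 73.8 at W6 (log2 change 1.85 ± 0.29, adjusted *P* = 0.0072). *Msmo1* had 30.6 and 35 TPM at W2 against 143 and 97.3 at W6 (log2 change 1.82 ± 0.22, adjusted *P* = 0.00279). *Sqle*, squalene epoxidase, had 18.5 and 17.8 TPM at W2 against 72.1 and 47.3 at W6 (log2 change 1.63 ± 0.35, adjusted *P* = 0.0201). *Fasn*, fatty acid synthase, had 19.3 and 17.8 TPM at W2 against 25.6 and 14.9 at W6 (log2 change 0.076, adjusted *P* = 0.879). The TPM of the 22 genes summed to 1800 and 1562 at D0, 961 and 869 at W2 and 1661 and 1184 at W6. Single left-out samples brought the count of higher members to 1 without W2 replicate 1 or 2 and 3 without W6 replicate 1. Other settings gave 3 with no filter on TPM, 4 with only ungrafted samples fitted and 5 with only W2 and W6 fitted. The median of the list became 0.421 without W6 replicate 1.

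Of 24 genes of glycolysis and hypoxia, 4 rose (against 7.99%) and 3 fell (against 8.31%). The glycolytic enzyme gene *Ldha* had 918 and 1038 TPM at W2 against 1700 and 1708 at W6 (log2 change 0.80 ± 0.16, adjusted *P* = 0.0174). *Pgk1*, another of them, had 164 and 188 TPM at W2 against 290.2 and 348 at W6 (log2 change 0.85 ± 0.22, adjusted *P* = 0.0366). The 3 falls were those of *Bnip3*, *Egln3* and *Pdk1*. *Bnip3* had 47.9 and 48.3 TPM at W2 against 7.97 and 18.1 at W6 (log2 change −1.91 ± 0.35, adjusted *P* = 0.0121). *Egln3* had 37 and 42.3 TPM at W2 against 10.4 and 13.7 at W6 (log2 change −1.65 ± 0.20, adjusted *P* = 0.00311). *Pdk1* had 44.2 and 42.3 TPM at W2 against 18.9 and 22.1 at W6 (log2 change −1.04 ± 0.14, adjusted *P* = 0.00409). Of 18 genes of amino acid transport and ATF4 targets, 4 rose (against 7.99%). *Mthfd2*, of mitochondrial one-carbon metabolism, had 4.25 and 4.29 TPM at W2 against 17 and 22.3 at W6 (log2 change 1.96 ± 0.39, adjusted *P* = 0.0155). *Asns*, asparagine synthetase, had 45.7 and 49.6 TPM at W2 against 94.7 and 102 at W6 (log2 change 1.03 ± 0.19, adjusted *P* = 0.0134). The numbers higher in the 2 lists were 0 without W2 replicate 1 or 2, 1 without W6 replicate 2 and 2 without W1 replicate 1 or 2 for the first, and 0 without W2 replicate 1 or 2, 1 without W6 replicate 2 and 2 without W6 replicate 1 for the second. In alternative fits it became 1 with no filter on TPM and 2 with only ungrafted samples fitted or the replicate block. The count was also 1 with no filter on TPM. Of 14 NRF2 targets, 3 rose (against 7.99%) and 1 fell (against 8.31%). *Gsta4*, a glutathione transferase for lipid aldehydes, had 3.83 and 5.63 TPM at W2 against 50.5 and 90.9 at W6 (log2 change 3.6 ± 0.38, adjusted *P* = 0.00173). *Nqo1* had 46.7 and 51.1 TPM at W2 against 79.3 and 98 at W6 (log2 change 0.84, adjusted *P* = 0.0277). *Gstm1* had 366 and 344 TPM at W2 against 126 and 208 at W6 (log2 change −1.13 ± 0.23, adjusted *P* = 0.0168).

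Signals to immune cells changed in both directions. Of 25 cytokine and chemokine genes, 3 rose (against 7.99%) and 5 fell (against 8.31%), with a median of 0.028. *Il36g*, an IL-1 family cytokine of inflamed epidermis, had 1.57 and 2.89 TPM at W2 against 16.3 and 15.1 at W6 (log2 change 2.4 ± 0.34, adjusted *P* = 0.00506). *Tslp* had 1.22 and 1.06 TPM at W2 against 5.99 and 6.6 at W6 (log2 change 1.77 ± 0.27, adjusted *P* = 0.00599). *Il18* had 2.24 and 2.52 TPM at W2 against 8.64 and 4.47 at W6 (log2 change 1.1, adjusted *P* = 0.0331). Beside *Ccl27a*, 4 genes fell. *Cxcl14*, a chemokine of resting epidermis, had 267 and 208 TPM at W2 against 51.9 and 52.1 at W6 (log2 change −2.16 ± 0.29, adjusted *P* = 0.00393). *Csf1*, the growth factor of macrophages, had 31.1 and 21.1 TPM at W2 against 9.11 and 8.07 at W6 (log2 change −1.48 ± 0.25, adjusted *P* = 0.00957). *Il6ra*, a receptor chain, had 24.9 and 25.4 TPM at W2 against 4.66 and 7.74 at W6 (log2 change −1.9 ± 0.26, adjusted *P* = 0.00469). *Cxcl12*, the ligand of CXCR4, had 11.7 and 11.3 TPM at W2 against 3.53 and 7.61 at W6 (log2 change −1.0, adjusted *P* = 0.0472). In fits that left out 1 sample, the lower members numbered 2 without W2 replicate 1. Under other settings it was 3 with only W2 and W6 fitted. Its median was 0.001 with median-ratio scaling, −0.041 with quantile normalization, 0.051 with a pseudocount of 0.1, 0.28 without W2 replicate 1, −0.098 without W2 replicate 2, 0.286 without W6 replicate 1, 0.141 without W6 replicate 2 and −0.155 with the length and GC correction.

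Of 12 S100 genes, 2 were higher (against 7.99% of all genes) and none lower, the 2 being the pair that forms calprotectin. *S100a8* had 5.3 and 12.9 TPM at W2 against 89.9 and 52.2 at W6 (log2 change 2.89 ± 0.81, adjusted *P* = 0.0435). *S100a9* had 4.33 and 8.27 TPM at W2 against 65.2 and 31.8 at W6 (log2 change 2.73 ± 0.55, adjusted *P* = 0.0169). Of this pair, none was called without W2 replicate 1, W2 replicate 2 or W6 replicate 1, and 1 of the list without W6 replicate 2 or either W1 replicate. *Slpi*, a secreted inhibitor of leukocyte proteases, rose, with 5.15 and 13.5 TPM at W2 against 141 and 66.9 at W6 (log2 change 3.38 ± 0.52, adjusted *P* = 0.00638), and *Defb1* fell, with 106 and 146 TPM at W2 against 78.4 and 54 at W6 (log2 change −0.92 ± 0.25, adjusted *P* = 0.0391), each 1 of 13 antimicrobial and protease inhibitor genes, shares near the 7.99% of all genes higher and 8.31% lower. S100A8, S100A9 and SLPI are also made by neutrophils, whose part in these rises was not tested, and *Ptprc* had 0.0226 and 0.00664 TPM at W2 against 0.0467 and 0.30 at W6.

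The other lists had few calls, to be held against the 7.99% of all genes that were higher and the 8.31% that were lower. Of 16 matrix proteases and inhibitors, *Timp1* rose, with 0.472 and 0.597 TPM at W2 against 5.21 and 4.74 at W6 (log2 change 1.96 ± 0.19, adjusted *P* = 0.00154). *Plaur* rose too (log2 change 1.01, adjusted *P* = 0.0411), while *Timp2* (log2 change −1.06, adjusted *P* = 0.0289) and *Mmp14* (log2 change −0.87, adjusted *P* = 0.0305) fell. *Plaur* was under 1 TPM in every sample from D0 to W2 and was tested only through W6 and W12. Of 12 mesenchymal and matricellular genes, *Tnc*, tenascin C, rose, with 5.6 and 5.75 TPM at W2 against 10.4 and 12.4 at W6 (log2 change 0.89 ± 0.21, adjusted *P* = 0.0289), and *Tgfbi* and *Ccn2* fell. *Vim*, vimentin, had 2.43 and 1.76 TPM at W2 against 1.57 and 4.14 at W6 (log2 change 0.24, adjusted *P* = 0.719). *Twist1*, *Zeb1*, *Snai1* and *Cdh2* averaged under 1 TPM in the time course and were not tested. Of 19 actomyosin genes, 3 rose and 3 fell, with *Tpm2* (log2 change 1.0, adjusted *P* = 0.0401) and *Myh9* (log2 change −0.85, adjusted *P* = 0.031) as examples. With 1 sample left out, the rises numbered 0 without W2 replicate 1 or 2 or W6 replicate 2 and 1 without W6 replicate 1 or W1 replicate 1 or 2, and the falls 0 without W2 replicate 1 or 2, 1 without W6 replicate 2 or W1 replicate 1 or 2 and 5 without W6 replicate 1. Of 15 p53 targets, 3 fell, led by *Trp53inp1*, with 26.1 and 36 TPM at W2 against 5.64 and 6.17 at W6 (log2 change −2.2 ± 0.24, adjusted *P* = 0.00192). *Cdkn1a*, the classical target, had 330.2 and 361 TPM at W2 against 528 and 300.3 at W6 (log2 change 0.21, adjusted *P* = 0.634).

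Of 16 clock genes, 1 was higher (against 7.99% of all genes) and 1 lower (against 8.31%), with a list median of −1.065. *Clock* rose (log2 change 0.89, adjusted *P* = 0.029) and *Tef* fell (log2 change −1.62, adjusted *P* = 0.039). The rises numbered 0 without W2 replicate 1 or 2 or W6 replicate 2 or W1 replicate 1 or 2 and 2 without W6 replicate 1, and the falls 0 without W2 replicate 1 or 2 or W1 replicate 1 or 2, 2 without W6 replicate 2, 3 without W6 replicate 1 and 5 without D0 replicate 1 or 2. Neither was called in fits of only W2 and W6 or only ungrafted samples, nor *Tef* with the replicate block. The list's median came to −0.295 without W6 replicate 2. The 2 W6 samples were far apart in other members. *Nr1d1* had 49.8 and 41.2 TPM at W2 against 40 and 3.79 at W6. *Dbp* had 17.7 and 15.53 TPM at W2 against 12.4 and 1.7 at W6, and neither passed the test. Of 78 oxidative phosphorylation genes, 2 were higher (against 7.99%) and none lower, while 57 had both W6 samples above both W2 samples (33.2% of all genes), with a median of 0.287. Without either D0 replicate, 24 of them were higher and 1 lower. The median of the list became 0.184 with quantile normalization and 0.182 without W6 replicate 2. Of 78 cytosolic ribosomal protein genes, 2 were higher (against 7.99%) and none lower, with a median of 0.145. In 46 of them both W6 samples were above both W2 samples (33.2% of all genes). Without either D0 replicate, 7 of them were higher. Its median was 0.086 with median-ratio scaling, 0.05 with quantile normalization and 0.032 with the length and GC correction. The histone gene *H2ac7*, one of the largest falls, was not in the list of replication-dependent histone genes. In that list none was called lower. Both W6 samples were above both W2 samples in 5 of its 10 tested members (33.2% of all genes) and below in 2 (31.8%). Of 10 replication-dependent histone genes, whose RNA lacks a poly(A) tail, 3 were higher (against 7.99%), a number that was 0 without W2 replicate 1 or 2 or W6 replicate 2 and 5 without D0 replicate 1 or 2. Of 32 genes encoded in mitochondrial DNA, 4 were higher (against 7.99%), all of them tRNA genes, and the number higher was 0 without W2 replicate 1 or 2 or W6 replicate 2 and 2 without W1 replicate 1 or 2. Other settings gave 1 with no filter on TPM or only W2 and W6 fitted or only ungrafted samples fitted or the length and GC correction and 2 with the replicate block. With the length and GC correction 1 was higher and 6 lower, and the median of 0.312 changed sign. The list's median came to 0.167 without W2 replicate 1, 0.636 without W6 replicate 1, 0.123 without W6 replicate 2 and −0.281 with the length and GC correction.

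The first week on DOX was set beside the later step, since D0 and W1 share no sample with W2 and W6. Both steps came from the same fit with a shared spread for each gene, so their calls are not independent. In that week 1296 genes differed (9.89%), 759 higher (5.79%) and 537 lower (4.1%). That count was 609 without W1 replicate 1 and 377 without W1 replicate 2. D0 replicate 2, labelled male, had *Xist* RNA and Y-linked RNA near 0, and without it 1031 genes differed. Over all genes, 7.99% rose and 8.31% fell from W2 to W6. Of the 759 genes that rose in the first week, 65 rose again from W2 to W6 (8.56% of the first and 6.2% of the 1048 later risers) and 169 fell (22.3%, or 15.52% of the 1089 later fallers). Of the 537 that fell in the first week, 83 rose later (15.46%, or 7.92% of the later risers) and 42 fell later (7.82%, or 3.86% of the later fallers). By the test of the difference, the changes of 2065 genes differed between the steps (15.8%), 812 with the more positive change in the later step (6.19%) and 1253 in the first week (9.56%). That number was 796 without W2 replicate 1, 790 without W2 replicate 2, 968 without W1 replicate 1 and 855 without W1 replicate 2.

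Stress keratins had unlike first weeks. *Krt6a* rose by 3.83 in the first week and by 3.77 from W2 to W6, and the steps did not differ by the test (−0.059, adjusted *P* = 0.961). *Krt16* changed by −0.89 in the first week (adjusted *P* = 0.107) and by 3.54 in the later step, a difference of 4.44, adjusted *P* = 0.00073. The 3 proliferins were at or near 0 TPM at D0, W1 and W2. *Ccn2* went up in the first week by 4.58 and down later, a difference of −6.24, adjusted *P* = 0.000298. *Csf1* went up by 2.56 and later changed by −1.48, a difference of −4.04, adjusted *P* = 0.000527. *Fgfr1* went up by 3.0 and later changed by −0.91, a difference of −3.91, adjusted *P* = 0.00063.

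For whole lists the 2 steps were set side by side. Over all genes, 5.79% were higher and 4.1% lower in the first week, and by the test of the difference 6.19% had the more positive and 9.56% the more negative change in the later step. Of the 30 mitosis genes, 12 fell in the first week and none rose, with a median of −0.828, and 26 had a more positive change in the later step by the test of the difference. Of the 22 cholesterol and fatty acid genes, 13 fell in the first week and none rose, and 15 differed between the steps in the same direction, *Insig1* by 3.76, adjusted *P* = 0.000979. Of the 18 basement membrane genes, 2 rose and 1 fell in the first week, with a median of 0.194, and 11 had a more negative change in the later step, *Col7a1* by −2.78, adjusted *P* = 0.000217. Of the 15 MHC class I genes, none differed in the first week by limma's test and 4 had a more negative change in the later step. Of the 10 EGF family genes, 4 fell in the first week and none rose, among them *Hbegf* (−3.33) and *Areg* (−2.48). The D0 samples held high immediate-early RNA, and 14 of the 19 genes of that list fell in the first week, *Fos* by −2.44, so that falls from D0 moved with that list, whose part in them was not tested. Of the 23 hair follicle stem cell and outer root sheath genes, 7 rose and none fell in the first week, and 10 had a more negative change in the later step, among them *Nfatc1* and *Vdr*. *Vdr* changed by 1.4 in the first week and by −1.2 later, a difference of −2.6, adjusted *P* = 0.000458.

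**Figure D5:**
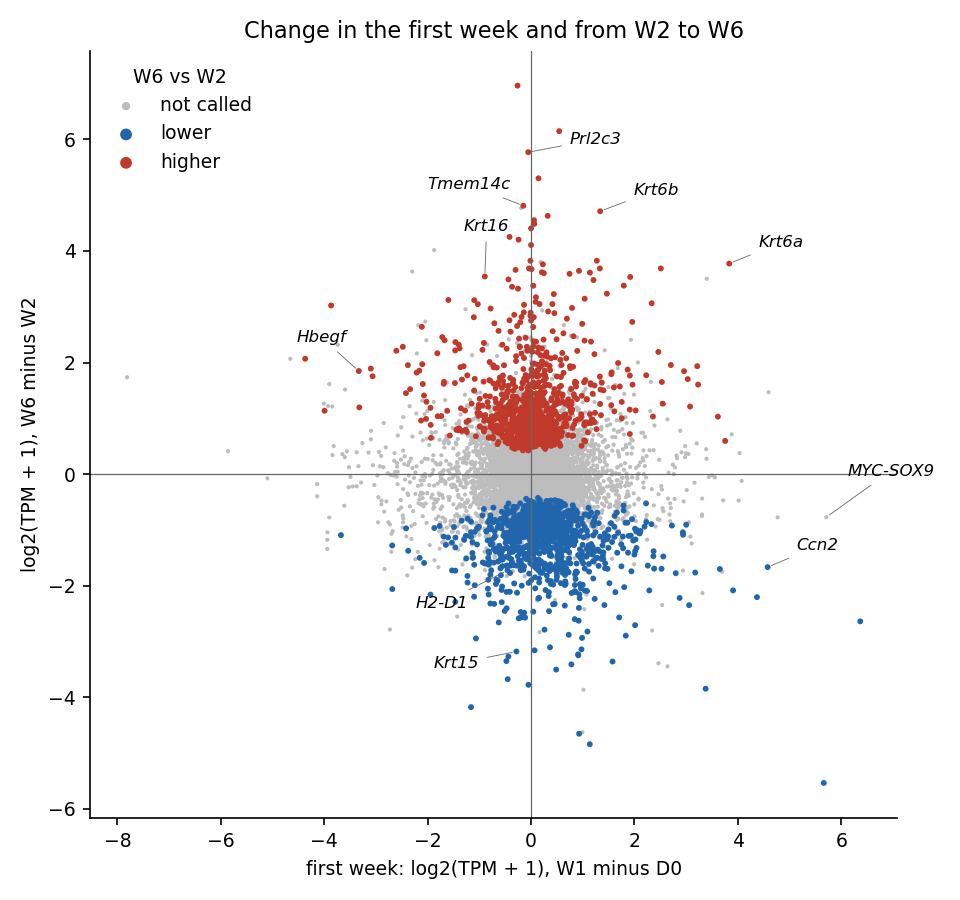
Log2 change of each tested gene in the first week on DOX (W1 minus D0, horizontal axis) and from W2 to W6 (vertical axis), with genes that differed between W2 and W6 at an adjusted *P* under 0.05 in colour. *Krt6a* lies in the upper right, *Ccn2* in the lower right and *Hbegf* in the upper left, while *Prl2c3* and *Krt15* lie near 0 on the horizontal axis.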

How the data were processed

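RNA-seq of 10 EpdSC samples, 2 at each of D0, W1, W2, W6 and W12, was analysed, with the group and replicate number of each taken from its label. The authors trimmed reads, ran Salmon on a GRCm38 GENCODE transcriptome to which the transgene had been added, summarised to genes with Tximport and deposited TPM, which carry no depth. The placode samples were not used here.

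Of 54332 genes, 13110 averaged 1 TPM or more across the 10 samples and were tested on log2(TPM + 1). The 5 timepoint means were fitted in limma 3.58.1 (R 4.3.3), with eBayes and a variance trend. *P* values were Benjamini-Hochberg adjusted over the 13110 genes, and the threshold for a call was an adjusted *P* under 0.05. The study tested counts with DESeq2, for which TPM are not suited. The first week was W1 minus D0, and the difference of the steps was a contrast of the same fit. Samples, not cells, are the replicates, and the spread rests on 2 for each timepoint.

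The genes named are the 12 largest rises and 12 largest falls among called genes that averaged 10 TPM or more at W2 or W6, no overlap of samples and no predicted-gene, pseudogene or mitochondrial name, and members of 58 gene lists written from the paper and general knowledge. The comparison and the lists were chosen with earlier results of these data known, so that no list is independent evidence. Values of some members, among them 1 of the 12 largest falls, are not reported here. GENCODE M21 (GRCm38) gave positions, and RefSeq (GRCm38.p6) the promoter windows, which matched 9615 tested genes.

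The labels tie no replicate number to an animal or day shared by timepoints, so it does not pair the samples. Alternatives changed 1 choice at a time. They were the pseudocount (0.1), the filter (none, or 5 TPM), the scaling (median-ratio or quantile), a constant variance, the samples fitted (W2 and W6 alone, ungrafted alone, or 1 sample fewer), a further demand for a 2-fold change on TPM + 1, and a replicate block. Chosen after seeing the data were a length and GC correction, the crossed block and, for each step, leaving out samples of the other. Before use, the limma script was tested on simulated data. The rest was done in Python 3.11.15 (scipy 1.17.1, numpy 2.4.6, matplotlib 3.10.9, pandas 2.3.3).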

Additional observations from a re-analysis of the deposited data

How the results depend on the processing

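No named gene that differed between W2 and W6 changed direction under any alternative. Of the 159 such genes, 151 passed the threshold with median-ratio scaling, 156 with quantile normalization, 145 with the length and GC correction, 104 in a fit of only W2 and W6 and 78 of 159 with no filter on low TPM. Without one sample, between 43 (W2 replicate 1) and 158 (either D0 replicate) did. The 2137 genes called became 940 with no filter, 966 with only W2 and W6, 1271 with only ungrafted samples and 1129 with an absolute log2 change of at least 1, and from 207 to 3179 with one sample left out. The first-week count became 606 with no filter and from 377 to 1773 with one sample left out, and the count for the difference of the steps 988 and from 790 to 3085. The first week's split of 759 higher and 537 lower became 549 and 677 with median-ratio scaling, 619 and 609 with quantile normalization and 678 and 785 with the length and GC correction, and the 812 and 1253 genes of the difference of the steps became 1009 and 992, 1015 and 1114, and 1140 and 1070. The cause was not tested.

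In a fit that carried the replicate block, 1396 genes differed between W2 and W6, 1057 in the first week and 1630 between the steps. Deviations of same-numbered samples had a correlation of −0.0533 for W2 and W6 and −0.113 for D0 and W1, and with the W1 numbers crossed the first-week count was 1041 and that between the steps 1596.

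Some named genes that were not called turned direction with 1 sample left out. Over those fits the log2 change ranged from −0.20 to 0.61 for *Cdkn1a*, −1.59 to 1.23 for *Cdsn*, −0.45 to 0.28 for *Col18a1*, −0.070 to 4.34 for *Dcn*, −0.30 to 0.45 for *Fasn*, −0.73 to 0.76 for *Flg*, −0.62 to 0.43 for *Fos* and −0.46 to 0.36 for *Foxc1*. It ranged from −1.69 to 0.59 for *H2-Ab1*, −0.63 to 0.32 for *H2-Q6*, −1.88 to 0.31 for *H2-T22*, −1.92 to 0.44 for *H2-T23*, −0.10 to 0.36 for *Itgb1*, −0.65 to 0.12 for *Krt10*, −0.035 to 1.63 for *Krt8*, −0.31 to 1.31 for *Nr4a1*, −0.078 to 0.34 for *Sox9* and −0.26 to 0.74 for *Vim*. Median-ratio scaling gave −0.040 for *Flg*, quantile normalization 0.0094 for *Fos* and −0.012 for *Lama1*, and the length and GC correction 0.32 for *Col18a1*, 0.26 for *Dsp* and 0.29 for *Foxc1*. TPM carry no depth, so what depth limits is unknown, and with 2 samples at each timepoint a change that did not pass the test is not shown to be absent.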
